A study of Mus musculus with 18 samples.

Results

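SOX17 ChIP-seq signal was followed over 42403 GATA6 binding regions of the mouse genome (mm10) while embryonic stem cells were driven towards primitive endoderm (PrE). All 42403 regions of the deposited table were taken, because the choice rested on the columns and not on any value, and each region has 6 SOX17 values, at d0, 8h, 16h, d1, d2 and d4. The cells were KH2, an ES cell line of the genotype C57BL/6 x 129/Sv that carries a Gata6 cassette switched on by doxycycline (Dox), and every group shares that cassette. The d0 cells had no treatment and the others had 1 µg/mL Dox in the medium for 8, 16, 24, 48 or 96 h, on MEF feeder cells whose share of the chromatin was not measured here. The 18 libraries of the series are MNase-seq, 3 in each of 6 groups, and carry no SOX17 value. The SOX17 values come from other libraries and are the authors' mean at each time, in RPM (reads scaled to the size of the library) in the whole region, so no value has a replicate error and no test between times was possible.

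GATA6 and SOX17 are transcription factors of the PrE, the layer of the early embryo that lines the epiblast and later forms part of the yolk sac. SOX17 belongs to the SOXF family, which binds DNA through an HMG box and bends it, at sites with the core ATTGT. SOX2, its relative in pluripotent cells, reads a closely similar core and pairs with OCT4. ChIP-seq recovers the DNA crosslinked to a protein with an antibody, so a higher signal in a region means that more of the precipitated fragments came from it.

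The sites below are examples of high-scoring SOX17 motifs, picked after the values were seen, to show that such a motif occurs both in regions where SOX17 signal rose and in regions where it fell. Other regions named below had a weaker motif, as the strongest regions near Gata4 (score 8.68) and Foxa2 (7.45) and the Klf2 region that fell (7.94), or none, as the region at the start of Nanog. Each printed site is the best SOX17 motif of its region, in capitals, with 25 bases on each side, read from GRCm38 on the motif's strand. The motif was found by the authors with a 9-base matrix, and 29333 of 42403 regions (69.2%) held at least 1 match on either strand, and in 23953 of these the best match held ATTGT. The first 8 sites come from regions in which the d4 signal was more than 2-fold above d0.
Col4a1 intron, chr8:11308760-11308818, minus strand: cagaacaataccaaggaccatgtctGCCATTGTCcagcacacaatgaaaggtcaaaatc
Sox17 distal, chr1:4536996-4537054, minus strand: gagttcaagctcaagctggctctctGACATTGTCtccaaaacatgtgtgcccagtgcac
Pdgfra distal, chr5:75143688-75143746, plus strand: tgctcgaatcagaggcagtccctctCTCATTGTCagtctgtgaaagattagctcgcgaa
Dab2 distal, chr15:6260092-6260150, plus strand: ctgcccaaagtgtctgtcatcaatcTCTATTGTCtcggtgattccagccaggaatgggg
Cubn distal, chr2:13496257-13496315, minus strand: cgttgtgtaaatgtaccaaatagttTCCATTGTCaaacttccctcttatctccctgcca
Lrp2 distal, chr2:69607763-69607821, plus strand: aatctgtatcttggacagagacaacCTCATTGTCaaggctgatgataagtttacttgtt
Klf4 distal, chr4:55516063-55516121, plus strand: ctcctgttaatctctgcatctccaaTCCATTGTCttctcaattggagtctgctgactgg
Cdh26 distal, chr2:178662654-178662712, plus strand: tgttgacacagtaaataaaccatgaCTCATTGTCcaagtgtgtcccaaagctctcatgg
The sites of 3 regions in which the d4 signal was more than 2-fold below d0 carried the same core.
Gli2 intron, chr1:119003540-119003598, plus strand: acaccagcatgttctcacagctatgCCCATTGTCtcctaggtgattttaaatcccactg
Sox2ot intron near Sox2, chr3:34646526-34646584, plus strand: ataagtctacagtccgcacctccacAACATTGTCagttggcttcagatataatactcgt
Near Tdgf1, chr9:110947822-110947880, minus strand: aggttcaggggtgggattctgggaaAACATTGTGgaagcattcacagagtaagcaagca

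The d0 column has to be read with care, since its values were a mixture of times. In 42403 of 42403 regions, 5 times the d0 value minus 2 times the 8h value and 1 time the 16h value was a whole multiple of 1 step, with a tolerance of 0.01 steps. The deposited d0 value was thus 40% d0, 40% 8h and 20% 16h, and the subtraction gives a separated d0 signal. Levels at d0 below are the separated signal, and counts against d0 are given for the column as deposited, with the separated value beside them where it matters. The steps also gave the depth behind each column, 20000000 reads at 16h and 40900000 at d0, with the other times between. The 16h column moved in steps of 1 depth, as from 1 library, and the 8h, d1, d2 and d4 columns in steps of 2. The separated d0 signal showed 1 step, and its depth was taken as that of 2 libraries of equal size. The region at the median held 11 reads at 16h and 34 at d4, and its counting error (SD) ran from 17.1% at d4 to 30.2% at 16h, which covers counting error only.

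SOX17 signal stayed low until 16h, rose at d1 and went on rising to d4. The median over regions was 0.538 RPM at d0, 0.544 at 8h, 0.550 at 16h, 0.888 at d1, 0.947 at d2 and 1.1 at d4. The upper end moved much further than the median. The highest 1% of regions began at 5.87 RPM at d0, 4.17 at 8h, 4.55 at 16h, 11.9 at d1, 15.7 at d2 and 21.3 at d4. The lowest 5% of regions lay at or under 0.147 RPM at d0 and 0.194 at d4. Together the regions took 4.01% of the SOX17 library reads at d0, 3.43% at 8h, 3.45% at 16h, 7.05% at d1, 8.42% at d2 and 10.8% at d4.

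A region was called when log2 of the ratio of 2 values, each with 0.136 RPM added, reached 1 in size, which is a 2-fold difference on that scale. It understates the change of weak regions. Against the deposited d0 column, 0 regions (0%) were above at 8h and 65 (0.153%) below, and 128 (0.302%) were above at 16h and 1223 (2.88%) below. At d1 11964 regions (28.2%) were above d0 and 801 (1.89%) below. At d2 15035 (35.5%) were above and 1221 (2.88%) below. At d4 19574 (46.2%) were above and 4211 (9.93%) below. The median log2 change was -0.02 at 8h, -0.06 at 16h, 0.53 at d1, 0.64 at d2 and 0.85 at d4, and the medians of all 20 chromosomes compared were above 0 at d1, d2 and d4. The share of regions above d0 at d4 ran from 40.7% to 55.4% over the chromosomes.

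Because 8h makes up 40% of the deposited d0 column, a 2-fold rise at 8h could hardly be seen against it. Against the separated d0 signal, 604 regions (1.42%) were above and 1742 (4.11%) below at 8h, and 1285 (3.03%) were above and 3551 (8.37%) below at 16h. At the later times the counts above d0 moved little, while those below were larger than against the deposited column. At d1 30.4% of regions were above and 4.67% below, at d2 37.1% and 5.83%, and at d4 47.6% and 12.3%. Of all regions called at d1, 93.7% were above the deposited d0 column, as were 92.5% at d2 and 82.3% at d4. That split depends on how the times are scaled. With each time divided by its median over regions without a SOX17 peak, 81.8% of called regions were above at d1, 83.5% at d2 and 77.9% at d4. With each time divided by its median over all regions, a scaling that shifted the median of all regions by 0.71 at d1, 0.80 at d2 and 1.01 at d4 (log2), these shares were 58.4%, 58.8% and 52.6%. Near the limit at d4, 1025 regions had a log2 change from 0.9 to below 1 and 1020 from 1 to below 1.1.

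**Figure D1:**
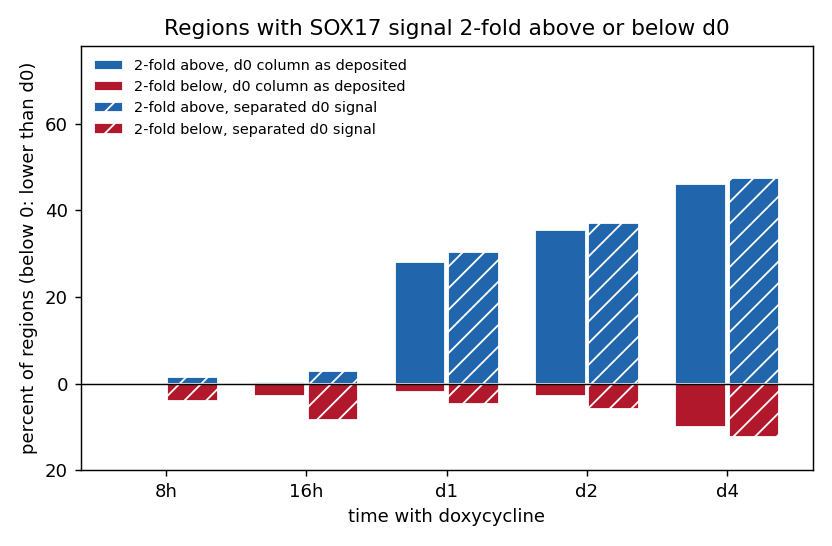
Percent of the 42403 regions with SOX17 signal 2-fold above d0 (blue, upward) or below d0 (red, downward) at each time with doxycycline, against the d0 column as deposited (plain bars) and the separated d0 signal (hatched bars). Regions above d0 make up 28.2% at d1 and 46.2% at d4 against the deposited column, which gives 0% at 8h and 0.302% at 16h.

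Input chromatin of the same time gave a background. The deposited d0 input was taken as equal parts of d0, 8h and 16h and separated on that assumption, which could not be checked by whole steps as for SOX17. SOX17 signal was 2-fold above input in 20.8% of regions at d0, 13.5% at 8h, 9.03% at 16h, 43.4% at d1, 49.7% at d2 and 51.3% at d4. The median input was 0.548 RPM at 16h and 0.397 to 0.452 RPM at the other times, and its part in the low share at 16h was not tested. The regions above input at d0 lay mostly outside the Late cluster described below, which had 3.19% of its regions above input, while the Transient cluster had 32.0%. At d4 the order had turned, with 71.8% of the Late cluster and 14.1% of the Transient cluster above input.

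The moves between neighbouring times were unequal. From 8h to 16h 2.58% of regions rose 2-fold and 3.83% fell. From 16h to d1 13541 regions (31.9%) rose and 157 (0.370%) fell. From d1 to d2 few regions moved 2-fold, with 2.42% up and 0.766% down, though the median log2 step of 0.14 was close to the 0.12 from d2 to d4. From d2 to d4 8571 regions (20.2%) rose and 5227 (12.3%) fell, so the last interval both added and removed SOX17 signal. Over the whole interval from d1 to d4 27.2% of regions rose and 13% fell. The profile across regions followed these moves. The Pearson correlation of log2 signal per kb over 42403 regions was 0.71 between d0 and 8h, 0.59 between 8h and 16h, 0.57 between 16h and d1, 0.87 between d1 and d2, 0.61 between d2 and d4 and -0.13 between d0 and d4. These values describe regions that share libraries and width and differ in depth.

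Most regions that reached 2-fold did so at d1 or at d4. The signal stayed above d0 from d1 on in 8335 regions (19.7%), from d2 on in 3271 (7.71%), and from d4 in 7864 (18.5%). It stayed above from 16h in 104 regions (0.245%). A further 4153 regions (9.79%) were above at some time and no longer at d4, 3045 of which were first above at d1 and 23 at 16h. The other 18676 (44.0%) were above at no time. The 104 regions from 16h on had a median of 0.441 RPM at d0, 0.641 at 8h, 2.07 at 16h, 7.57 at d1, 10.8 at d2 and 6.45 at d4. They were closed chromatin at d0 in 97 of 104 cases (93.3%), against 61.3% of all regions. A SOX17 motif was held by 95 (91.3%), against 69.2% of all regions. Of the classes described below, 79 (76%) were Early&Constant, against 28% of all regions. Ectopic peaks of pluripotency factors were held by 90 (86.5%), against 16.6%. Against the separated d0 signal, 830 regions were above from 16h on and 86 from 8h on.

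The authors divided the regions by k-means clustering of GATA6 signal into Early&Constant (11875, early), Late (14243) and Transient (16285), and SOX17 signal moved differently in each. In early regions the median went from 0.783 RPM at d0 through 0.806 at 8h and 0.95 at 16h to 2.17 at d1, 2.49 at d2 and 2.68 at d4. In Late regions it was 0.294 at d0, 0.350 at 8h, 0.300 at 16h, 0.543 at d1, 0.670 at d2 and 1.48 at d4. In Transient regions it was 0.759 at d0, 0.671 at 8h, 0.600 at 16h, 0.807 at d1, 0.750 at d2 and 0.481 at d4. Early regions thus gained most of their SOX17 signal by d1 and Late regions after d2, while Transient regions ended below their starting level. Wider regions hold more reads, and the clusters differ in width, but per kb the d4 medians still lay apart, at 3.66 RPM per kb in early, 3.62 in Late and 0.9003 in Transient regions.

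**Figure D2:**
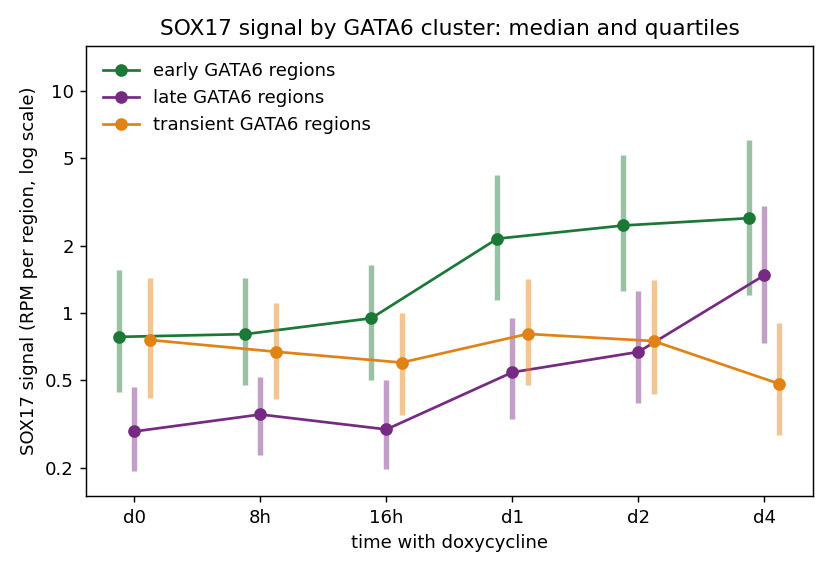
SOX17 signal in RPM per region (log scale) at 6 times with doxycycline, as the median (points and line) and the quartiles (bars) over regions of each GATA6 cluster, with the separated d0 signal. The early median steps up to 2.17 RPM at d1, the Late median to 1.48 RPM at d4, and the Transient median falls to 0.481 RPM at d4; the bars are spread over regions and not error.

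The calls followed the same order on every chromosome compared. At d1 the share above d0 was 56.9% in the early cluster, 22.6% in the Late and 12.2% in the Transient cluster, against 28.2% of all regions. At d4 these shares were 63.5%, 75.8% and 7.59%, against 46.2%. Early regions had a higher share than Late regions at d1 on 20 of 20 chromosomes, and Late regions a higher share than early regions at d4 on 20 of 20. Within 10 bins of region width, early regions were above Late ones at d1 in 10 of 10 bins and Late above early at d4 in 10 of 10. Late regions were above Transient ones at d1 in 8 of 10 bins, and in the 2 narrowest bins the order turned, with 10.0% of Late against 14.1% of Transient regions and 15.2% against 16.6%. Signal was 2-fold below d0 at d4 in 24.4% of the Transient cluster, in 1.95% of the early and 0.0632% of the Late cluster, against 9.93% of all regions. From d2 to d4 46.9% of Late regions rose 2-fold, against 13.8% of early and 1.55% of Transient regions, and 23.2% of Transient regions fell. The authors made the clusters from GATA6 signal and not from SOX17 signal, though both ChIP series were taken from the same cell line and times.

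Regions were also classed by the authors by peaks of OCT4, SOX2 or ESRRB, factors of pluripotency (PTFs), as bound from d0 (8841 regions), bound only after Dox (ectopic, 7038) or not bound (26524). Regions with PTFs from d0 had the highest SOX17 signal before Dox, with a median of 1.91 RPM at d0, 1.31 at 8h, 1.20 at 16h, 2.03 at d1, 1.93 at d2 and 1.12 at d4. Their signal therefore dipped in the early hours, came back at d1 and fell again by d4. The authors report that GATA6 rapidly bound the Sox17 locus and activated the gene. Over all regions at d0, log2 SOX17 signal per kb had a Pearson correlation of 0.85 with SOX2 and 0.82 with OCT4. It was 0.77 with ATAC-seq, 0.42 with input and 0.19 with GATA6. All but the GATA6 d0 values were separated as for input. At d4 the same correlations were 0.90 with SOX2, 0.80 with OCT4, 0.73 with ATAC-seq, 0.48 with input and 0.89 with GATA6. Whether the d0 signal is SOX17 binding was not tested. Ectopic regions went from 0.636 RPM at d0 to 0.678 at 8h, 0.80 at 16h, 2.22 at d1, 2.80 at d2 and 3.18 at d4. Regions without PTFs rose more slowly, from 0.367 RPM at d0 to 0.606 at d1, 0.670 at d2 and 0.874 at d4. The share above d0 at d1 was 72.0% of ectopic regions, 25.1% of those with PTFs from d0 and 17.6% of those without, against 28.2% of all regions. By d4 these shares were 72.3%, 22.8% and 47.0%, against 46.2%, so regions without PTFs had passed those with PTFs from d0. At d4 33.9% of regions with PTFs from d0 were below the deposited d0 column, and 42.0% were below the separated d0 signal, against 9.93% and 12.3% of all regions.

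Splitting by both classes gave further differences. Ectopic regions led within each GATA6 cluster, with the SOX17 signal above d0 at d1 in 80.0% of the early, 70.7% of the Late and 46.5% of the Transient members of that class. In Late ectopic regions the median reached 4.18 RPM at d4 from 0.465 RPM at d0. In Transient ectopic regions it went from 0.612 RPM at d0 to 1.46 at d1 and 1.58 at d2 and back to 0.757 at d4, and 40.2% of them were above d0 at some time and no longer at d4. The fall of regions with PTFs from d0 was seen in the Transient ones, of which 52.4% were below d0 at d4, against 6.37% of the early and 1.60% of the Late ones. The 3282 early regions with PTFs from d0 kept a high signal, with a median of 2.23 RPM at d0, 4.47 at d1, 5.16 at d2 and 4.16 at d4.

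**Figure D3:**
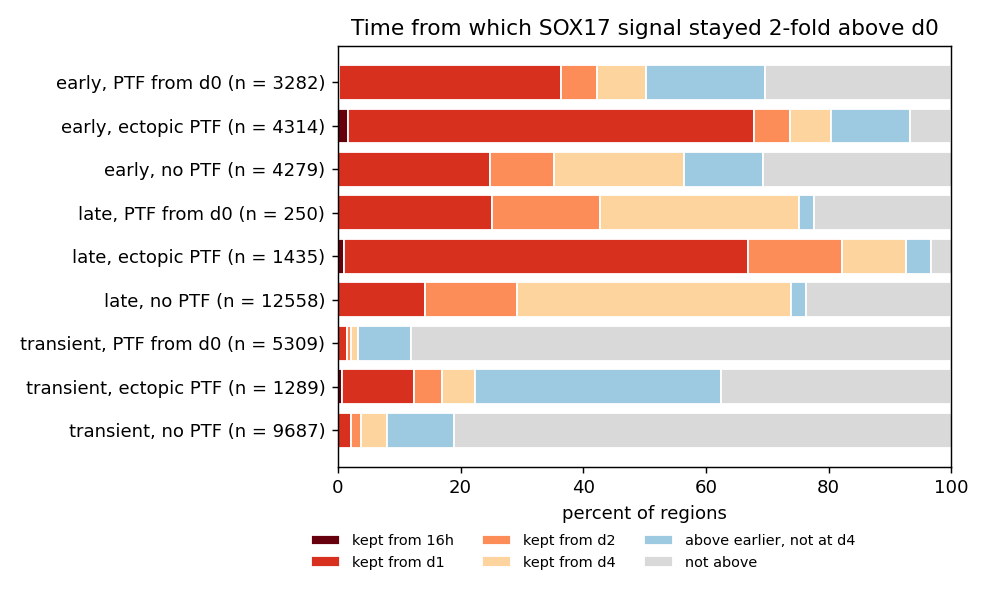
Percent of regions by the time from which SOX17 signal stayed 2-fold above the deposited d0 column, for each GATA6 cluster and PTF class, with the number of regions in brackets. In ectopic PTF regions of the early and Late clusters the signal was kept from d1 in 66.3% and 65.9% of regions, and 40.2% of Transient ectopic regions were above earlier but not at d4.

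Accessibility at d0 split the regions in a like way. The 3152 accessible regions had a median SOX17 signal of 1.75 RPM at d0, 1.28 at 8h, 1.1 at 16h, 1.63 at d1, 1.81 at d2 and 1.48 at d4. The 26003 closed regions went from 0.367 RPM at d0 to 0.410 at 8h, 0.40 at 16h, 0.709 at d1, 0.789 at d2 and 1.07 at d4. Of closed regions 34.1% were above d0 at d1 and 55.8% at d4. Of accessible regions 14.1% were above at d1 and 31.2% at d4, and another 31.2% were below at d4. Within the Late cluster the shares above d0 at d4 were 75.3% of accessible and 76.4% of closed regions, so that there the split by accessibility was small. Within the early cluster they were 48.2% and 67.6%. Within the Transient cluster the order turned, with 14.8% of accessible and 6.52% of closed regions above d0 at d4.

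The deposited class with a SOX17 peak (18861 regions) rests on the same ChIP data and is given as a description. Its median went from 0.636 RPM at d0 to 1.75 at d1, 2.21 at d2 and 3.03 at d4. The 23542 regions without a peak had 0.465 RPM at d0, 0.606 at d1, 0.592 at d2 and 0.540 at d4. Late regions without a SOX17 peak still rose from 0.245 RPM at d0 to 0.704 at d4, and 50.2% of those 6640 regions were above d0.

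Regions with a SOX17 motif were above d0 more often than those without. The best SOX17 motif score of a region is a log-odds match score from the authors' FIMO scan. At d4 51.2% of the regions with a motif and 34.9% of those without were above d0, against 46.2% of all regions. At d1 the shares were 33.3% and 16.9%. The share at d4 was 41.8%, 49.4%, 55.2% and 58.8% over 4 score groups of like size, from the lowest score to the highest. Regions with a motif are wider (median 586 bp against 420 bp), but within 10 width bins the share with a motif was higher in 10 of 10 at d4, by 10.5 to 18.1 percentage points. The weaker regions were also left out, those whose highest signal was not above the median of that maximum. The shares at d4 were then 67.9% with and 64.6% without a motif. That maximum can be the d4 signal itself, so regions above d0 at d4 pass this filter more readily. These shares therefore cannot show how much the motif matters among strong regions. Regions with 4 or more motifs had a median of 1.25 RPM at d0 and 4.12 RPM at d4, and those with 1 motif 0.490 and 1.03 RPM. These are values per whole region, and the median widths were 991 bp and 492 bp. Groups of motif score and number were not compared within width bins.

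The share above d0 also differed with the place of the motif. Where the best motif lay within 25 bp of the GATA6 summit, 58.6% of regions were above d0 at d4, and at 100 to 200 bp 45.5% were. Beyond 400 bp the share was 50.2%. The median widths of these 3 groups were 470, 528 and 1177.5 bp, and they were not compared at like width. In early regions 61.2% of those with a motif were above d0 at d1 and 41.7% of those without. In Late regions at d1 26.9% and 13.3% were above, and in Transient regions 14.3% and 8.71%.

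**Figure D4:**
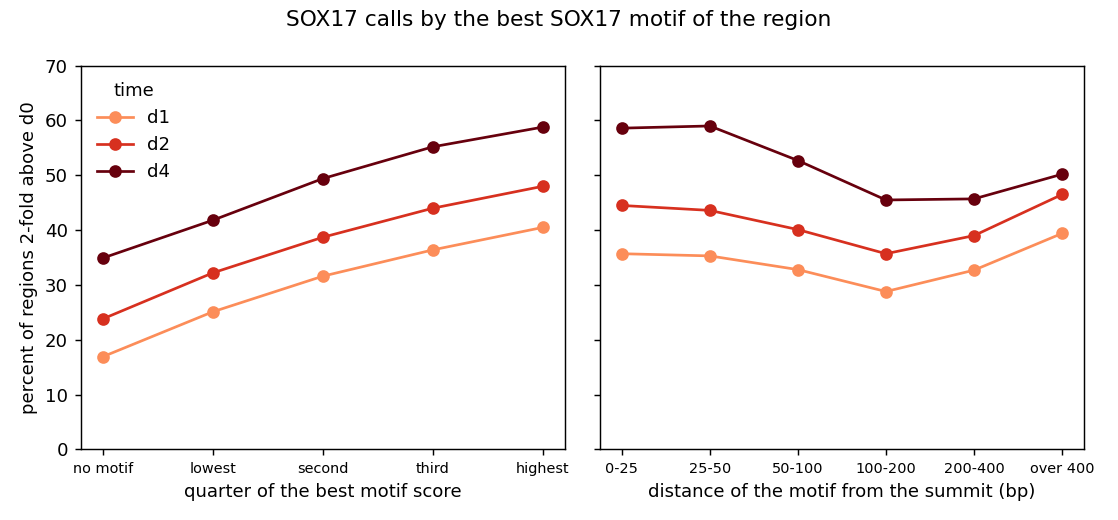
Percent of regions with SOX17 signal 2-fold above the deposited d0 column at d1, d2 and d4, by group of the best SOX17 motif score (left) and by the distance of that motif from the GATA6 summit in bp (right). At d4 the share rises from 34.9% without a motif to 58.8% in the highest score group, and is lowest, at 45.5%, for motifs 100 to 200 bp from the summit.

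Among the commoner motif sequences 1 had a lower share above d0 at d4 than at d1. There were 100 such 9-base sequences, each the best motif in at least 100 regions, and the share of their regions above d0 at d1 ran from 17.2% to 50.4% and at d4 from 27.8% to 66.4%. The 3 commonest and that sequence are shown.
Commonest motif: TCCATTGTC
Next in number: TTCATTGTT
Highest score: CCCATTGTC
Exception: TCTATTGTT
TCCATTGTC was the best motif in 517 regions, of which 45.3% were above d0 at d1 and 61.9% at d4. TTCATTGTT was the best motif in 504, with 33.5% and 57.3%. CCCATTGTC, which has the highest score of all, was the best in 482, with 50.4% and 63.5%. TCTATTGTT was the best motif in 475 regions, of which 45.3% were above at d1 and 50.7% at d2 but 36.0% at d4. The median signal in those 475 regions was 0.759 RPM at d0, 1.36 at d1, 1.46 at d2 and 0.846 at d4. Of them 54.9% were Transient, against 38.4% of all regions.

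Regions were then named by rule in each GATA6 cluster, among regions whose highest signal was above the median of that maximum. The highest d4 signal of all lay in an intron of Col4a1 (chr8:11308478-11310403), which encodes a collagen chain of basement membranes, 3902 bp from the start of Col4a2. It had PTFs from d0 and closed chromatin, and SOX17 signal was 4.16 RPM at d0, 4.12 at 8h, 8.40 at 16h, 33.2 at d1, 53.0 at d2 and 114 at d4. It rose at least 2-fold from 8h to 16h, from 16h to d1 and from d2 to d4, and the log2 change from d0 to d4 was 4.48. The largest rise in the early cluster was 382128 bp from Nrp1 (chr8:127976016-127977134), a receptor for semaphorins and VEGF, where the signal went from 0.441 RPM at d0 to 0.619 at 8h, 1.0 at 16h, 7.64 at d1, 10.4 at d2 and 31.0 at d4.

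In the Late cluster the highest d4 signal lay in an intron of Rassf3 (chr10:121456613-121458298), at 1.54 RPM at d0, 1.31 at 8h, 2.25 at 16h, 6.13 at d1, 10.1 at d2 and 43.2 at d4. The largest rise of all named regions was 232092 bp from Cdh26 (chr2:178662368-178662987), with 0.367 RPM at d0, 0.269 at 8h, 0.80 at 16h, 7.24 at d1, 15.3 at d2 and 34.4 at d4, a log2 change of 5.97. Both regions had ectopic PTFs and closed chromatin at d0. In the Transient cluster the highest d4 signal was 53978 bp from Nkain1 (chr4:130519705-130520508), at 7.93 RPM at d0, 6.05 at 8h, 6.55 at 16h, 16.1 at d1, 21.2 at d2 and 19.4 at d4. The largest Transient rise lay in an intron of Fam19a4 (chr6:96932555-96932931), from 0.122 RPM at d0 to 0.194 at 8h, 0.30 at 16h, 2.13 at d1, 4.53 at d2 and 6.19 at d4.

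The largest falls were ranked from d1 to d4, so a high signal at d1 is part of the choice. A Transient region in an intron of Gli2 (chr1:119003450-119004375), a transcription factor of the hedgehog pathway, had 2.52 RPM at d0, 2.41 at 8h, 4.10 at 16h, 9.88 at d1, 7.77 at d2 and 0.499 at d4. Its motif was CCCATTGTC, the best-scoring sequence. A Late region in an intron of Cd247 (chr1:165854041-165855116) had 1.05 RPM at d0, 0.962 at 8h, 3.95 at 16h, 24.97 at d1, 41.0 at d2 and 2.95 at d4. An early region in an exon of Ankrd46 (chr15:36484844-36485486) had 0.196 RPM at d0, 1.01 at 8h, 2.90 at 16h, 12.4 at d1, 13.1 at d2 and 0.998 at d4, with no SOX17 motif. These regions all lost most of their signal between d2 and d4. The log2 change from d0 to d4 was -0.08 at Ankrd46 and 0.83 at Cd247 against the deposited column, and 1.77 and 1.38 against the separated d0 signal.

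The highest d0 signals lay at promoters. In the early cluster it was near Rhof (chr5:123134464-123138762), at 17.4 RPM at d0, 13.2 at 8h, 13.4 at 16h, 28.0 at d1, 31.2 at d2 and 33.7 at d4. In the Transient cluster it lay at Rif1 (chr2:52070815-52072707), which encodes a protein of replication timing and DNA repair, at 13.1 RPM at d0, 7.50 at 8h, 5.80 at 16h, 8.52 at d1, 7.77 at d2 and 3.63 at d4. The Rif1 signal was below its d0 level at every later time.

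The strongest regions of a gene are those with the highest d4 signal. Lists of genes set out the loci by role, with all regions whose summit lay within 100 kb of the gene's start, and their counts are read against 28.2% above d0 at d1, 46.2% at d4 and 9.93% below at d4 among all regions. Near the 6 SOXF and GATA factors, 36 of 69 regions (52.2%) were above d0 at d1 and 50 (72.5%) at d4, with 4 below. Near the 7 PrE factors and receptors 41 of 88 (46.6%) were above at d1 and 58 (65.9%) at d4. Near the 8 genes of the basement membrane 47 of 104 (45.2%) were above at d1 and 85 (81.7%) at d4, and 0 were below. Near 7 of the 8 genes of endoderm transport and secretion, since Apob had no region, 29 of 71 (40.8%) were above at d1 and 49 (69.0%) at d4. Near the 13 pluripotency genes 41 of 147 (27.9%) were above at d1 and 50 (34.0%) at d4, with 21 (14.3%) below. Near 10 genes of other lineages 14 of 54 (25.9%) were above at d1 and 24 (44.4%) at d4, with 9 (16.7%) below.

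**Figure D5:**
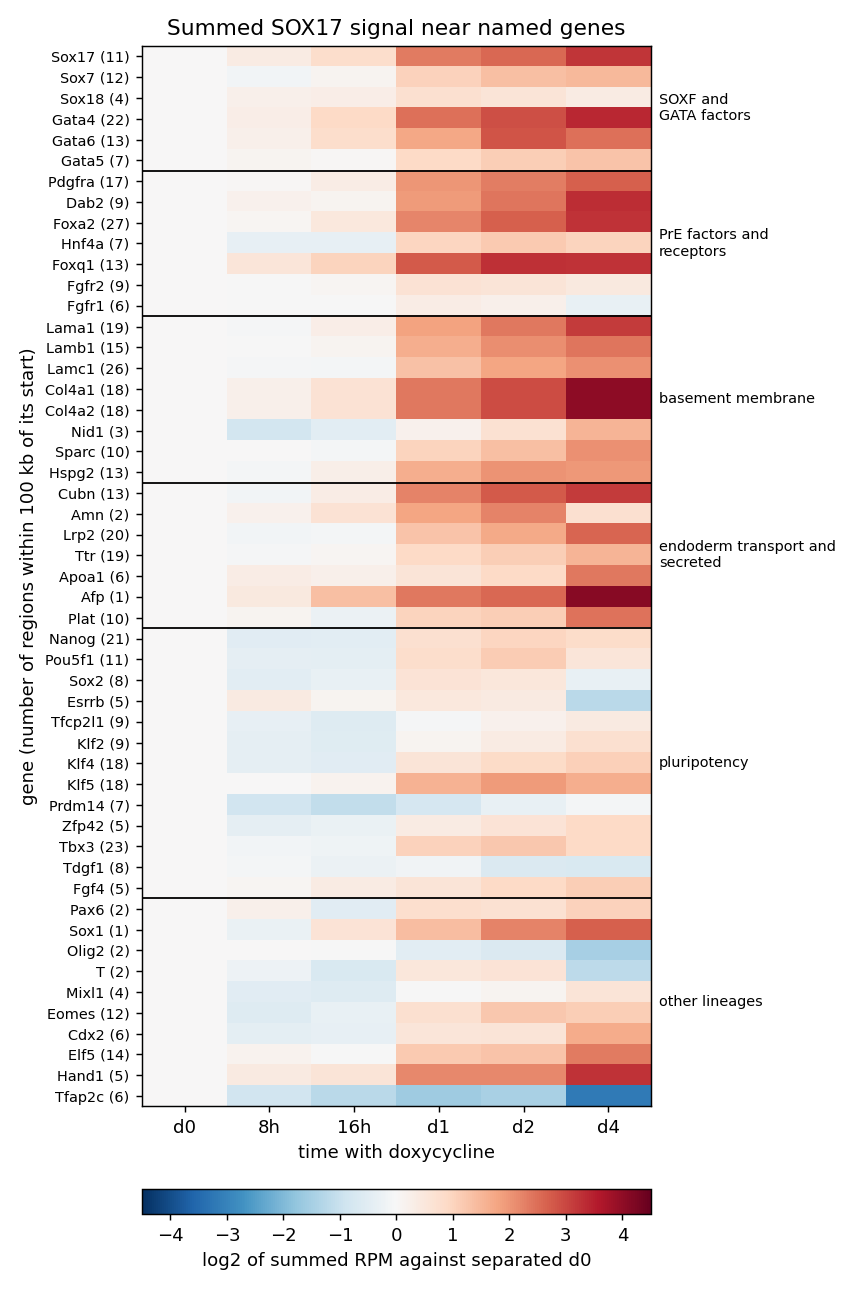
Summed SOX17 signal of all regions within 100 kb of each gene's start, as log2 against the separated d0 signal, at 6 times with doxycycline (colour, blue lower and red higher), with the number of regions in brackets and the gene lists set apart by lines. Rows of basement membrane genes redden from d1 to d4, as do Pdgfra, Dab2, Foxa2 and Foxq1. Hnf4a reddens only weakly (7.34 RPM at d0, 16.6 at d2, 14.5 at d4), and Fgfr2 and Fgfr1 stay pale. Most pluripotency rows stay pale, with Klf5 the reddest of them (25.1 RPM at d0, 94.8 at d2), and Tfap2c turns blue. Col4a1 and Col4a2 share the same 18 regions, and Afp rests on 1 weak region.

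The SOXF gene Sox17 had 11 regions, whose summed signal was 10.4 RPM at d0, 13.3 at 8h, 17.8 at 16h, 53.0 at d1, 62.5 at d2 and 97.0 at d4, with 9 of 11 above d0 at d4. The strongest, 40288 bp from its start (chr1:4536608-4538990), went from 1.27 RPM at d0 to 3.95 at 16h, 13.4 at d1, 18.6 at d2 and 36.7 at d4. At its promoter (chr1:4496237-4497180) the signal was 0.587 RPM at d0, 1.07 at 8h, 1.20 at 16h, 1.99 at d1, 2.92 at d2 and 4.82 at d4. Gata4, which encodes a GATA factor of the endoderm, had 22 regions that summed to 19.5 RPM at d0, 24.0 at 8h, 36.5 at 16h, 108 at d1, 145 at d2 and 206 at d4. Near endogenous Gata6, 13 regions summed to 8.64 RPM at d0, 10.1 at 8h, 14.8 at 16h, 28.7 at d1, 61.4 at d2 and 48.3 at d4. Sox7, another SOXF gene, had 8 of 12 regions above d0 at d4, whereas Sox18 had 0 of 4 and summed to 1.42 RPM at d0 and 1.83 at d4.

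Among the PrE factors and receptors, Dab2, an endocytic adaptor, had 9 of 9 regions above d0 at d4. Its nearest region (chr15:6259733-6260526) lay 39555 bp from its start and had 0.734 RPM at d0, 0.626 at 8h, 0.600 at 16h, 2.17 at d1, 4.30 at d2 and 18.04 at d4. Pdgfra, a receptor that marks the PrE, had 14 of 17 regions above, and its strongest region (chr5:75142815-75145699) went from 3.21 RPM at d0 to 14.6 at d1, 22.0 at d2 and 30.6 at d4. Foxa2, a forkhead factor of the endoderm, had 22 of 27 above. The FGF receptor genes stood apart in their list, since Fgfr2 had 0 of 9 and Fgfr1 0 of 6 regions above d0 at d4.

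Basement membrane genes held some of the strongest loci. The 18 regions shared by the neighbouring genes Col4a1 and Col4a2 summed to 19.5 RPM at d0, 22.9 at 8h, 30.6 at 16h, 99.9 at d1, 148 at d2 and 320 at d4. Lama1, a laminin chain, summed to 23.5 RPM at d0, 83.2 at d1, 123 at d2 and 209 at d4 over 19 regions, and Lamc1 to 49.1 at d0, 123 at d1, 168 at d2 and 206 at d4 over 26. Hspg2, which encodes perlecan, reached 91.4 RPM at d2 and 85.3 at d4 from 22.3 at d0. In the endoderm transport list Cubn, an uptake receptor, summed to 12.4 RPM at d0, 57.8 at d1, 84.3 at d2 and 111 at d4. Its partner gene Amn went the other way after d2, and its stronger region (chr12:111267544-111268564) had 2.59 RPM at d0, 2.74 at 8h, 4.10 at 16h, 9.15 at d1, 13.05 at d2 and 2.54 at d4. Lrp2, an endocytic receptor, had 8 of 20 regions above d0 at d1 and 19 of 20 at d4. Ttr, a secreted carrier of thyroid hormone, had at its start a signal of 0.490 RPM at d0, 0.634 at 8h, 0.25 at 16h, 0.545 at d1, 0.908 at d2 and 3.86 at d4, and was first above d0 at d4.

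Pluripotency loci held regions that fell beside regions that rose. At the start of Nanog (chr6:122707247-122707684), a factor of the naive state, the signal was 2.69 RPM at d0, 1.86 at 8h, 1.5 at 16h, 1.39 at d1, 0.947 at d2 and 0.610 at d4. The strongest region within 100 kb of Nanog, in an intron of Slc2a3, rose from 2.64 RPM at d0 to 8.52 at d1, 10.1 at d2 and 19.8 at d4. The nearest region of Klf2, a Krüppel-like factor (chr8:72315857-72316655), had 6.95 RPM at d0, 2.86 at 8h, 1.5 at 16h, 1.996 at d1, 1.22 at d2 and 1.06 at d4. That of Tdgf1, a co-receptor for NODAL (chr9:110946813-110948450), had 7.44 RPM at d0, 6.14 at 8h, 5.15 at 16h, 5.20 at d1, 3.75 at d2 and 1.14 at d4. The nearest region of Sox2 (chr3:34645871-34646868) had 2.64 RPM at d0, 1.51 at 8h, 1.40 at 16h, 1.25 at d1, 1.22 at d2 and 0.405 at d4. In these 4 regions nearest to a gene the d4 signal was the lowest of the 6 times. At Klf4 a region 16413 bp from the gene (chr4:55515487-55516878) rose from 1.76 RPM at d0 to 7.64 at d1, 13.1 at d2 and 30.1 at d4.

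Among genes of other lineages, Tfap2c, a factor of trophoblast and germ cells, had 5 of 6 regions below d0 at d4, and their sum was 14.3 RPM at d0, 7.86 at 8h, 6.20 at 16h, 4.68 at d1, 5.21 at d2 and 1.59 at d4. Hand1 and Elf5, also known from trophoblast, had 3 of 5 and 10 of 14 regions above d0 at d4. At Hand1 the nearest region lay in an intron of Sap30l and went from 0.392 RPM at d0 to 4.65 at d1, 4.73 at d2 and 12.1 at d4.

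SOX17 and GATA6 signal changed together over the regions after d1. Across 42403 regions the Spearman correlation of the log2 change from d1 to d4 was 0.88 between SOX17 and GATA6, 0.85 with SOX2, 0.84 with OCT4 and 0.74 with ATAC-seq, as a description of regions that share width and cell preparations. In the 8335 regions with SOX17 above d0 from d1 on, the GATA6 median was 1.30 RPM at 8h, 2.03 at 16h, 2.54 at d1, 2.88 at d2 and 4.10 at d4, and the SOX17 median of those regions was 0.575 RPM at 8h and 2.26 at d1. In the 4153 regions with SOX17 above d0 earlier and no longer at d4, the GATA6 median was 1.98 RPM at 8h, 2.30 at d1 and 0.984 at d4. Their SOX17 median was 0.538 RPM at d0, 0.566 at 8h, 1.62 at d1 and 0.704 at d4. In the 4211 regions below d0 at d4, the SOX2 median fell from 3.81 RPM at 8h to 0.426 at d4 and the OCT4 median from 3.50 to 0.520, while that of SOX17 fell from 1.09 to 0.346. The part of SOX2, OCT4 or accessibility in the SOX17 signal of these regions was not tested.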

How the data were processed

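The regions, classes and motif scores are those of the deposited table of GATA6 regions. The authors aligned single-end, UMI-tagged ChIP reads to mm10 with Bowtie2, counted them in each region and corrected for library size. The SOX17 values deposited are RPM, averaged by the authors over chromatin preparations; their lowest values hold 1 added read a library. The deposited input is signal in the same scale. Deposited motif values are FIMO scores. The SOX17 libraries are not among the 18 libraries of the series.

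Columns were used by name and 23 signal columns were not used. Fold changes carried a pseudocount of 0.136 RPM, the median deposited d0 value divided by 4, and calls a 2-fold limit. With 1 value a time, no p-value was computed. The separated d0 signal was an alternative added after the data were seen. Arithmetic was tested on simulated data. The class of response to Oct4 knockdown, planned for description, was left out, since it is a comparison of the authors. Summits were annotated with GENCODE M21 (promoter, within 1 kb of a transcript start), and sequences came from RefSeq's GRCm38 copy with pysam 0.24.0; each of 210 distinct motif sequences had 1 score, which fixed the base counting. Named regions were, in each cluster, those with the highest d4 or d0 signal, the largest rise from d0 to d4 and the largest fall from d1 to d4; taken among regions whose highest signal was above the median of that maximum; gene lists gave the nearest and all regions within 100 kb, and the strongest region of each was added after the data were seen. A gene of the planned lists is not reported here. Members and lists were chosen with earlier results of these data known. Python 3.11.15, numpy 2.4.6 and pandas 2.3.3 were used.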

Additional observations from a re-analysis of the deposited data

How the results depend on the processing

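Of 236 summary values under the alternatives, 154 stayed within 1.5 times (shares) or 0.1 log2 (medians) of the reported value and 82 moved; of 450 values for 63 named regions 32 lost a 2-fold call, 8 gained one and 0 turned from a call in one direction to the other; values short of a call did change sign, as at Cd247 (-0.11 with scaling on all regions) and Ankrd46 (1.77 with the separated d0 signal). With the separated d0 signal the Rhof region had a log2 change of 0.95 at d4. Values as percent of regions follow in the order of the text, above d0 at d1, d2 and d4. Here lost means above d0 at some time and no longer at d4. Scaling on all regions gave 10.4%, 15.3% and 25%, with 22.5% below at d4, medians of -0.032, 0.0055 and 0.022, 9.90% up from 16h to d1, onset at d1 6.69%, lost 5.20%, never above 69.8%, early at d1 25.1%, Late at d4 44.4%, Transient at d4 0.964%, PTF from d0 below 57.0%, closed 33.3%, accessible 6.66%, with motif 30.2% and without 13.4%. Scaling on regions without a peak gave 17.7% at d1, medians of 0.24, 0.38 and 0.68, 16.8% up from 16h to d1, onset at d1 12.9% and lost 6.20%. A pseudocount 4 times larger gave 16.7% and 23.4% at d1 and d2, 4.54% below at d4, medians of 0.34, 0.41 and 0.56, 16.7% up from 16h to d1, 6.13% down from d2 to d4, onset at d1 11.8%, Transient 4.14%, PTF from d0 below 19.6% and without motif 22.2%; 1 smaller by 10 times gave medians of 0.65, 0.78 and 1.01. Leaving out low values gave 46.3% and 57.4% at d1 and d2, medians of 0.93, 1.17 and 1.77, 48.1% up from 16h to d1, onset at d1 35.6%, never above 21.4%, Transient 17.2%, closed 84.3% and without motif 64.6%. That filter takes the highest signal over all times, d4 among them, so it favours regions that rose. A 1.5-fold limit gave 47.3% at d1, 16.8% below at d4, 53.8% up from 16h to d1, 32.7% up and 23.4% down from d2 to d4, onset at d1 30.5% and Transient 14.8%. A 4-fold limit gave 5.50%, 10.8% and 23.3%, 1.64% below, 3.97% up from 16h to d1, 3.99% up and 1.60% down from d2 to d4, onset at d1 4.10%, lost 2.86%, never above 73.8%, early 14.3%, Late 40.7%, Transient 0.817%, ectopic 47.1%, PTF from d0 below 7.43%, closed 30.9%, accessible 6.31%, with motif 28.5% and without 11.7%. Within clusters, ectopic Transient regions were at 22.3%, and PTF from d0 below at 6.37% (early), 1.60% (Late) and 52.4% (Transient). Signal per kb, the middle range of widths, the width bins, motifs near the summit and the separated d0 signal moved 0 of these values past those limits. The cause of each move was not tested, beyond the limit or the regions that an alternative itself changes.

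Each time has 1 pooled value, so leaving out a replicate was not possible and differences between times are not set against replicate spread. The 4-fold limit moved 19 of 20 values and scaling on all regions 19 of 23. The regions are sites that GATA6 binds, and a rise in all of them cannot be told apart from a difference between precipitations. Fewer reads at 8h and 16h leave weak regions with few reads. No paired analysis was possible because the SOX17 columns carry no replicate numbers.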

Other observations

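Histone state, which the authors took from ENCODE data of ES cells and not from d0 of this series, set regions apart by SOX17 gain as well. The state named naive had the highest share of regions above d0, 43.0% of 7631 at d1 and 61.6% at d4. Facultative heterochromatin followed at 32.3% and 55.9% of 9475. Active enhancers had the highest median signal at d0, 1.76 RPM, and the lowest share above at d4, 27.1% of 4730, with 27.2% below. Promoter regions had 14.4% above at d1 and 46.1% at d4, and a d4 median of 2.13 RPM, the highest of the states.

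The motif TCTATTGTT, chosen after its values were seen, was often in repeat-masked sequence. Its 9 bases were mostly masked in the GRCm38 copy in 289 of 475 regions (60.8%), against 10.4% of regions for TCCATTGTC, 26.0% for TTCATTGTT, 27.6% for GCCATTGTG and 52.2% for TTTATTGTT. The share above d0 for TTTATTGTT was 22.7% at d1 and 47.2% at d4. In the 289 masked regions of TCTATTGTT the share above d0 was 51.2% at d1, 55.0% at d2 and 26.6% at d4. In the 186 unmasked regions it was 36.0%, 44.1% and 50.5%. The masked regions were Transient in 65.7% of cases and the unmasked in 38.2%, against 38.4% of all regions. For the other motifs in masked sequence the share was 31.7% at d1 and 44.6% at d4 in 4360 regions. The 29 bases around the motif were identical in 17 regions. Most of these were above d0 at d1 or d2 and no longer at d4, against 26.9% of all TCTATTGTT regions. A few stayed above d0, so the signal of the 17 regions did not all move alike. At chr1:5228042-5228070, in a Transient region, it was 0.930 RPM at d0, 1.82 at d1, 0.868 at d2 and 0.188 at d4. At chr13:90810213-90810241, also Transient, it was 0.367 RPM at d0, 1.32 at d1, 1.42 at d2 and 0.435 at d4. At chr8:4818895-4818923, in a Late region, it rose from 0.294 RPM at d0 to 3.82 at d4.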
